A study of Mus musculus with 12 samples.

Results

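Folate carries 1-carbon units through a cycle of enzymes in the cytosol and the mitochondria. Serine hydroxymethyltransferases take the unit from serine, the MTHFD enzymes change its oxidation state, thymidylate synthase uses it to make dTMP for DNA, and methionine synthase passes it to homocysteine. The mitochondrial arm largely runs from serine to formate, which the cytosolic arm uses, and proliferating cells depend on both arms for nucleotides. The 8 genes described here were chosen by name for these roles: the folate carrier Slc19a1, the cytosolic enzymes Shmt1, Mthfd1, Tyms and Mtr, and the mitochondrial enzymes Shmt2, Mthfd2 and Mthfd1l. The deposited lists named 16172 genes in all, and each of the 8 was listed in each of the 12 libraries.

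The libraries were RNA BS-seq libraries of poly(A) RNA from adult neural stem cells (NSCs), which were taken from the subventricular zone of wild-type male C57BL/6 mice at 6 to 8 wk. Cells of all groups were cultured for 4 days with EGF and bFGF and received folic acid at 1.5 μM (low, LF), 10 μM (medium, MF) or 80 μM (high, HF). Total mRNA (LF, MF, HF) and mRNA of polysome fractions with more than 3 ribosomes (pLF, pMF, pHF) were each sequenced in 2 replicates, described as biological, and the limma p-values measure the spread between such replicates. For polysome fractionation the paper describes a short incubation of the cells with cycloheximide and freezing of the pellets before lysis. It does not describe these steps for the total mRNA, and their part in differences between polysome and total mRNA was not tested. All 3 conditions received folic acid, so no group was without folate, and MF and pMF serve as the shared controls of 2 comparisons each.

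Bisulfite turns unmethylated cytosine into uracil, so an unconverted read at a cytosine is counted as methylated (m5C). Each list gives, for every cytosine with at least 1 methylated read, the coverage (reads over it) and the methylated reads. A cytosine without a methylated read is not listed. For these genes 2 quantities were taken from the lists: the median coverage over listed cytosines with a methylation level under 5%, which measures how deeply the listed part of the mRNA was sequenced, and the methylation level itself.

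The lists held between 797260 and 2071190 cytosines, with a summed coverage between 1186213013 and 2857966129. The 2 libraries labelled HF stood apart. Across the 7135 genes tested, the centred log2 coverage of LF and MF libraries correlated at 0.90 to 0.91, while the HF-labelled libraries correlated with them at 0.71 to 0.75. Each other library holds the coverage that the study's own site list gives for its group, or more, and the libraries labelled HF do not, so they are called HF-labelled throughout, and their differences from MF are differences between libraries that are not read as an effect of the 80 μM condition. The polysome libraries correlated with each other at 0.79 to 0.85. In pHF replicate 2, 38353 cytosines had a level above 0.9, while the other libraries had 3465 or fewer. Of 8 NSC markers, 7 (Nes, Pax6, Vim, Fabp7, Hes5, Notch1, Msi1) were listed in all libraries, and the cytosines at the eighth, Sox2, were listed under Sox2ot with a median coverage of 780.5 to 3591 reads. Markers of other cell types were listed as well: of the 5 microglia markers, Cx3cr1 was listed in all 12 libraries, with 38 to 409.5 reads, and the other 4 (Csf1r, Aif1, P2ry12, Tyrobp) in none. Olig1 and Olig2 of the 7 oligodendrocyte lineage markers, Slc1a3 and Aldoc of the 5 astrocyte markers, Tubb3 and Map2 of the 6 neuron markers and 4 of the 7 fibroblast or mural markers (Col1a2, Col3a1, Acta2, Pdgfrb) were covered well enough to be tested.

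Among the 8 genes, the mitochondrial enzymes Shmt2 and Mthfd2 were higher in polysome mRNA than in total mRNA at low and medium folate. Relative to the median gene of each library, which was itself lower in most polysome libraries, their coverage was higher by 5.53-fold and 6.66-fold in pLF over LF and 7.71-fold and 6.22-fold in pMF over MF. On the same relative scale the carrier Slc19a1 was 5.76-fold higher in pLF than in LF. The mitochondrial enzyme Mthfd1l and the cytosolic enzymes Shmt1, Mthfd1, Tyms and Mtr did not pass the test in any comparison. No gene of the 8 passed it between LF and MF in total mRNA, or between pLF or pHF and pMF in polysome mRNA. No cytosine of the 8 genes was methylated to 10% in both replicates outside the HF-labelled libraries.

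**Figure D1:**
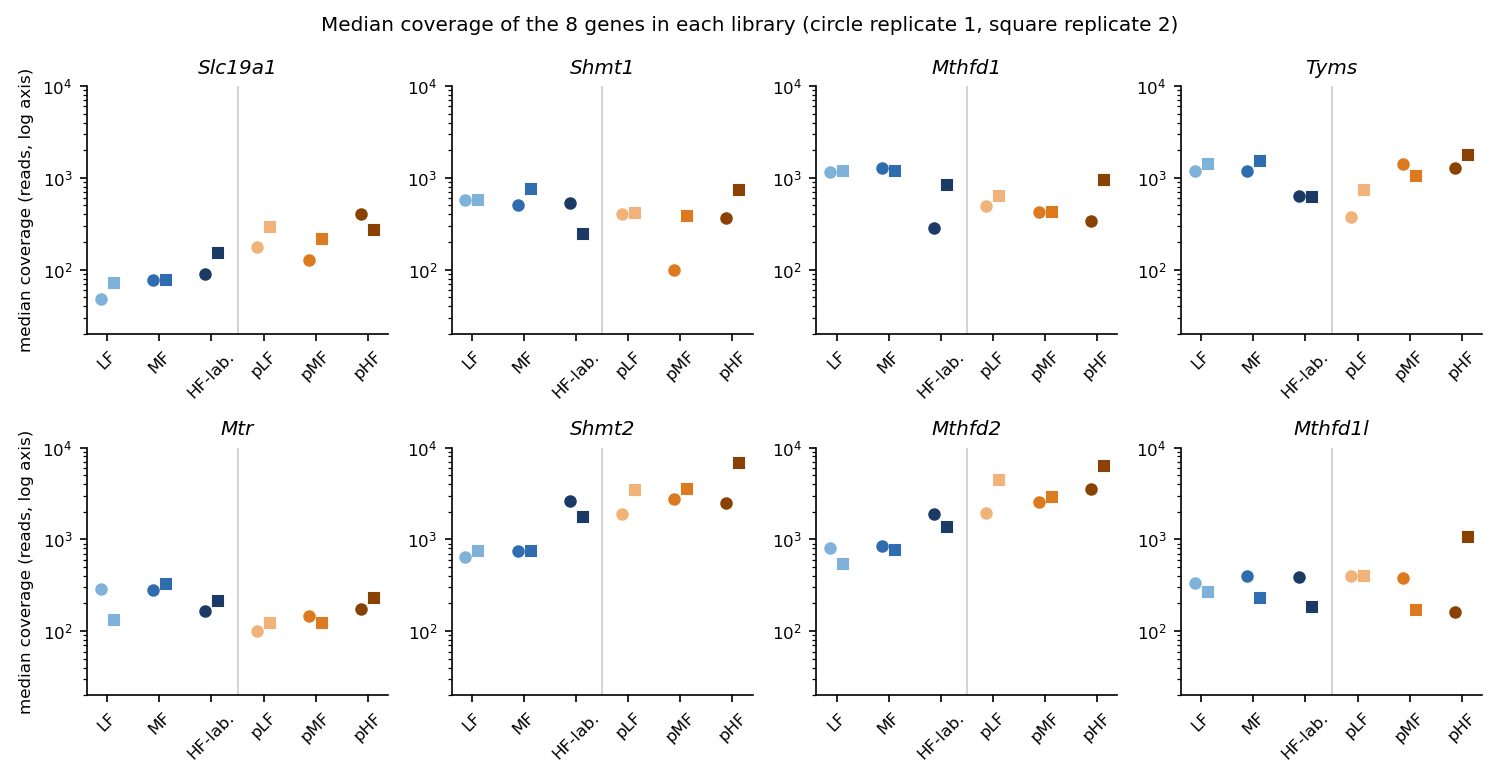
Median coverage in reads (log axis) of each of the 8 genes over listed cytosines with a level under 5%, in the 12 libraries (circles replicate 1, squares replicate 2; the grey line separates total from polysome mRNA). Shmt2 and Mthfd2 lay between 542 and 845 reads in LF and MF and between 1895 and 6848 reads in the polysome libraries, and Slc19a1 lay between 48 and 78 reads in LF and MF and between 126 and 404 reads in the polysome libraries.

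Slc19a1 (chr10:77032241-77061002, plus strand, in mm10 as are all positions here) encodes the reduced folate carrier, which brings folates across the plasma membrane. Its median coverage was 48 and 72 reads in LF, 78 and 78 in MF, 89 and 152 in the HF-labelled libraries, 176 and 289 in the pLF pair, 126 and 213 in the pMF pair, and 404 and 271 in the pHF pair. Each polysome library lay above each LF and MF library, although the median gene of the tested set had lower coverage in 5 of the 6 polysome libraries than in LF and MF. It was thinly listed, with 10 to 93 cytosines per library, so its medians rest on few positions. A listed cytosine with a level under 5% has at least 21 reads, so low medians such as those in LF and MF are cut off from below. In LF and MF its coverage lay at percentile 0.189 to 1.07 of the tested genes. After centring each library on its median gene, Slc19a1 was higher in pLF than in LF by 2.53 on the log2 scale (SE 0.59, limma adjusted p = 0.0228). In pMF against MF the difference was 1.95 (SE 0.59, limma adjusted p = 0.0571), which missed the threshold, and in pHF against the HF-labelled libraries it was 1.34 (SE 0.59, adjusted p = 0.160 by limma). The call in pLF rested on all but 1 of its libraries: without LF replicate 1, LF replicate 2 or pLF replicate 2 the difference was 2.29, 2.77 or 2.28 and the limma adjusted p was 0.145, 0.0847 or 0.0876.

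Shmt1 (chr11:60788104-60811718, minus strand) encodes the cytosolic serine hydroxymethyltransferase. Its median coverage was 569.5 and 579.5 reads in LF, 501.5 and 752 in MF, 533 and 242 in the HF-labelled libraries, 401.5 and 409 in the pLF pair, 100 and 383.5 in the pMF pair, and 362 and 744.5 in the pHF pair. On the centred log2 scale the pMF replicates stood further apart than any pair of group means. Mthfd1 (chr12:76255298-76319803, plus strand) encodes the trifunctional cytosolic enzyme that joins formate to tetrahydrofolate and reduces the product. Its median coverage was 1159 and 1189 reads in LF, 1270.5 and 1189 in MF, 285 and 826 in the HF-labelled libraries, 488.5 and 636.5 in the pLF pair, 424 and 421 in the pMF pair, and 337 and 958.5 in the pHF pair. Relative to each library's median gene it was 2.06 to 2.16 times in LF and 1.95 to 2.29 times in MF, and 1.31 to 1.59 times in pLF and pMF. The polysome and total libraries thus did not overlap at either concentration, but the differences, -0.49 and -0.66 on the log2 scale with SE 0.47, did not pass the test (limma adjusted p = 0.520 and 0.377).

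Tyms (chr5:30058202-30073617, minus strand) encodes thymidylate synthase, the source of newly made dTMP, and Mtr (chr13:12182712-12258113, minus strand) encodes methionine synthase. The median coverage of Tyms was 1198 and 1421.5 reads in LF, 1173 and 1541 in MF, 629 and 611 in the HF-labelled libraries, 378 and 740 in the pLF pair, 1423 and 1054.5 in the pMF pair, and 1271 and 1786 in the pHF pair. Tyms was thus lower in both pLF libraries than in any LF, MF, pMF or pHF library. The median coverage of Mtr was 291 and 131 reads in LF, 280 and 325 in MF, 167 and 213 in the HF-labelled libraries, 101.5 and 123 in the pLF pair, 148 and 121.5 in the pMF pair, and 174.5 and 232 in the pHF pair. Mtr was among the lowest of the 8, and between folate concentrations its differences ran from -0.57 to 0.05 on the log2 scale, none past the test.

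Shmt2 (chr10:127517123-127522444, minus strand) encodes the mitochondrial serine hydroxymethyltransferase, where serine enters the mitochondrial arm. Its median coverage was 638 and 755 reads in LF, 755 and 741 in MF, 2599.5 and 1771 in the HF-labelled libraries, 1895 and 3448 in the pLF pair, 2744 and 3561 in the pMF pair, and 2508 and 6848 in the pHF pair. Mthfd2 (chr6:83305691-83325908, minus strand) encodes the mitochondrial methylene-tetrahydrofolate dehydrogenase and cyclohydrolase, known for its high expression in embryonic and proliferating cells. Its median coverage was 810 and 542 reads in LF, 845 and 774 in MF, 1876 and 1374 in the HF-labelled libraries, 1933 and 4470.5 in the pLF pair, 2560 and 2902 in the pMF pair, and 3557.5 and 6210 in the pHF pair. For both genes the order was the same: LF and MF overlapped, and the HF-labelled and polysome libraries lay above them without overlap. Mthfd1l (chr10:3973118-4167081, plus strand) encodes the mitochondrial formate-tetrahydrofolate ligase, the last step to formate. Its median coverage was 336 and 264 reads in LF, 398 and 230.5 in MF, 390 and 181 in the HF-labelled libraries, 399 and 403.5 in the pLF pair, 377.5 and 172 in the pMF pair, and 162.5 and 1050 in the pHF pair. It was 0.378 to 0.718 times the library's median gene in LF and MF and 0.527 to 1.54 times in the polysome libraries, and the pHF replicates held its lowest and its highest value.

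By median coverage over the listed cytosines in MF, Tyms (1173 and 1541 reads) and Mthfd1 (1270.5 and 1189) were highest and did not differ beyond their replicates. Mthfd2 (845 and 774) followed, then Shmt2 (755 and 741), which overlapped Shmt1 (501.5 and 752), and Mthfd1l (398 and 230.5) overlapped Mtr (280 and 325). Slc19a1 was lowest, with 78 reads in both libraries. This is an order of the listed parts of the mRNAs and not of whole mRNAs, since in MF 10.1% and 8.11% of the exon cytosines of Tyms were listed, against 28.2% and 39.2% of those of Mthfd1 and 1.70% and 1.39% of those of Slc19a1. In pMF the order was different, with Shmt2 (2744 and 3561) and Mthfd2 (2560 and 2902) first and Tyms (1423 and 1054.5) next.

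The first comparison asked whether folate concentration changed the abundance of these mRNAs in total RNA. Between LF and MF, 0 of the 8 genes passed, as did 0% of the 7135 genes tested with limma (0 genes, with 136 at an unadjusted p under 0.05, and 1 gene with cytosines of any level or with the 75th percentile of coverage). Slc19a1 was lower in both LF libraries than in both MF libraries, by 0.35 on the log2 scale, while 20.2% of all tested genes were lower in LF without overlap. The other genes overlapped between LF and MF. The 95% intervals of the difference ran from -0.68 to 0.59 for Shmt2, from -0.72 to 0.76 for Tyms and from -1.66 to 0.97 for Slc19a1. A level 2 times lower in LF thus lay within the interval of Slc19a1. It also lay within those of Mthfd1, Mthfd1l, Mthfd2, Mtr and Shmt1, whose lower limits ran from -1.62 to -1.01. In bulk RNA, fewer cells of a type and less RNA per cell cannot be told apart.

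The HF-labelled libraries differed from MF in 2 of the 8 genes, both higher, where 6.36% of all genes passed the test and 3.55% were higher. Shmt2 was higher by 2.03 on the log2 scale (SE 0.29, limma adjusted p = 0.00852) and Mthfd2 by 1.50 (SE 0.35, limma adjusted p = 0.0380), and neither overlapped between the groups. Slc19a1 was also higher in both HF-labelled libraries, by 1.08, and Tyms lower in both, by 0.61, against 29.9% of all genes that were higher and 31.1% that were lower without overlap. Neither passed the test (limma adjusted p = 0.318 and 0.319). For Tyms the call turned on how coverage was summarised: the difference was -0.91 with mean coverage, -0.71 with the 75th percentile and -0.73 over matched cytosines (limma adjusted p = 0.0193, 0.0464 and 0.000701). Other RNAs moved with these differences, given here as coverage with no scaling between libraries. Summed coverage of a marker list adds the median coverage of its genes over cytosines with a level under 5%. A gene without such a cytosine adds 0, which does not mean that it had no reads. Sox2, whose cytosines were listed under Sox2ot, is thus left out of the NSC sum. The summed coverage of the oligodendrocyte lineage markers, of which 3 of 7 were listed in all libraries, was 3637.5 and 4364 in the HF-labelled libraries and 11368 to 13519.5 in LF and MF. That of the astrocyte markers (2 of 5 listed in all) was 2597.5 and 2650 against 4842.5 to 5973. Slc1a3 and Aldoc made up most of it and were lower in both HF-labelled libraries. Gfap (66 and 75.5 reads) and Aqp4 (173 and 76 reads), each listed at few cytosines, were higher there than in any LF or MF library that listed them. The NSC markers summed to 34721.5 and 38921 against 51483.5 to 59929.5, and Vim made up most of that sum. Nes, Vim and Fabp7 were lower in both HF-labelled libraries, and Notch1 overlapped. Pax6 (473.5 and 285.5 against 153 to 245), Hes5 (1284 and 1119 against 678 to 801.5) and Msi1 (1287 and 654 against 157 to 323) were higher in both. The median gene had 433 and 386 reads in the HF-labelled libraries and 537 to 610 in LF and MF. The summed coverage of the 6 cycling cell markers was 4474.5 and 4696 in the HF-labelled libraries and 10644 to 13685 in LF and MF, and that of the fibroblast or mural markers, of which 5 of 7 were listed in all libraries, was 8832 and 10300 against 5450.5 to 7168. The neuron markers (760.5 and 1055.5 against 751 to 1314) overlapped between the groups, as did the microglia marker Cx3cr1 (154 and 409.5 against 133 to 220). The endothelial markers summed to 49.5 and 84 in the HF-labelled libraries, from few cytosines of Kdr and Pecam1, and none was listed in LF or MF. The part of all these markers in the result was not tested. Neither call was stable to single libraries. Without MF replicate 1, MF replicate 2 or HF-labelled replicate 1, none of the 8 genes passed. Without HF-labelled replicate 2 Shmt2 passed (limma adjusted p = 0.0313), Mthfd2 did not (adjusted p = 0.0901 by limma), and Mthfd1 passed as lower (-1.68, limma adjusted p = 0.0473). Over these 4 settings the difference was 1.83 to 2.22 for Shmt2 and 1.36 to 1.64 for Mthfd2, and over all genes the 454 that passed became 16 to 161.

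In polysome mRNA, 0 of the 8 genes passed between pLF and pMF, against 0.168% of all genes, and 0 passed between pHF and pMF, against 0.0841%. The largest value was that of Tyms, which relative to the median gene was 0.37 times as high in pLF as in pMF (-1.45 on the log2 scale, SE 0.33, unadjusted p = 0.00147 and adjusted p = 0.225 by limma). Tyms and Mtr were lower in both pLF libraries, as were 14.6% of all genes, and Mthfd1 was higher in both, as were 18.3%. The Tyms difference was not stable to how coverage was summarised: with the 75th percentile in place of the median it was -0.06, and over cytosines listed in all 4 libraries it was 0.12. For Tyms the change from total to polysome mRNA differed between low and medium folate by -1.46 (SE 0.47), with a limma adjusted p of 0.999, and 0.0140% of all genes passed this test. The remaining 7 genes differed from pMF by -0.52 to 0.82 in pLF and by -0.13 to 0.87 in pHF, and none passed the test. The sum of gene medians was 4776.5 to 13713 for the cycling cell markers in the polysome libraries and 4983 to 7805.5 for the oligodendrocyte lineage markers. The part of these markers in the values above was not tested.

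The second comparison asked which of these mRNAs were enriched or depleted in polysomes. In pLF against LF, 3 of the 8 genes passed and all 3 were higher, while 13.3% of all genes passed and 7.99% were higher. Mthfd2 was higher by 2.74 on the log2 scale (SE 0.35, limma adjusted p = 0.00283), Shmt2 by 2.47 (SE 0.29, limma adjusted p = 0.00181) and Slc19a1 by 2.53. In pMF against MF, 2 of the 8 passed, both higher, while 12.4% of all genes passed and 7.36% were higher. Shmt2 was higher by 2.95 (SE 0.29, limma adjusted p = 0.000735) and Mthfd2 by 2.64 (SE 0.35, limma adjusted p = 0.00298). The median difference of the 8 genes was 0.55 and 0.69 on the log2 scale, against 0.07 and 0.03 over all genes.

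Counted by overlap alone, Mthfd2, Shmt2, Slc19a1 and Mthfd1l were higher in both pLF libraries than in both LF libraries, as were 33.8% of all genes, and Mthfd1 and Tyms were lower in both, as were 26.2%. Mthfd2, Shmt2, Slc19a1 and Tyms were higher in both pMF libraries than in both MF libraries, as were 35.9% of all genes, and Mthfd1 and Mtr were lower, as were 31.2%. For Tyms the differences were -0.72 in pLF and 0.75 in pMF (SE 0.33, limma adjusted p = 0.179 and 0.164). The value in pLF depended on how coverage was summarised, with 0.05 for mean coverage, 0.39 for the 75th percentile and -0.99 over matched cytosines (limma adjusted p = 0.90, 0.222 and 0.00420). Slc19a1 in pMF lay near the threshold: it passed with mean coverage (1.63, limma adjusted p = 0.00601), with at least 3 cytosines, with quantile normalization, with only the groups compared, without either pHF replicate, and without pHF replicate 2 and the HF-labelled libraries. It did not pass in the other settings in which it was tested. Mthfd1 passed as lower in pLF with mean coverage (-0.77, limma adjusted p = 0.0262) and in pMF over matched cytosines (-0.56, limma adjusted p = 0.00635).

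The calls for Shmt2 and Mthfd2 in pLF against LF and in pMF against MF remained without pHF replicate 2 and the HF-labelled libraries and without any single replicate of the groups compared. When the 4 libraries of pLF and LF were fitted alone, 0 genes of the 8 passed and 0 of all genes, with limma adjusted p = 0.0552 for Shmt2 and 0.0665 for Mthfd2 and Slc19a1.

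**Figure D2:**
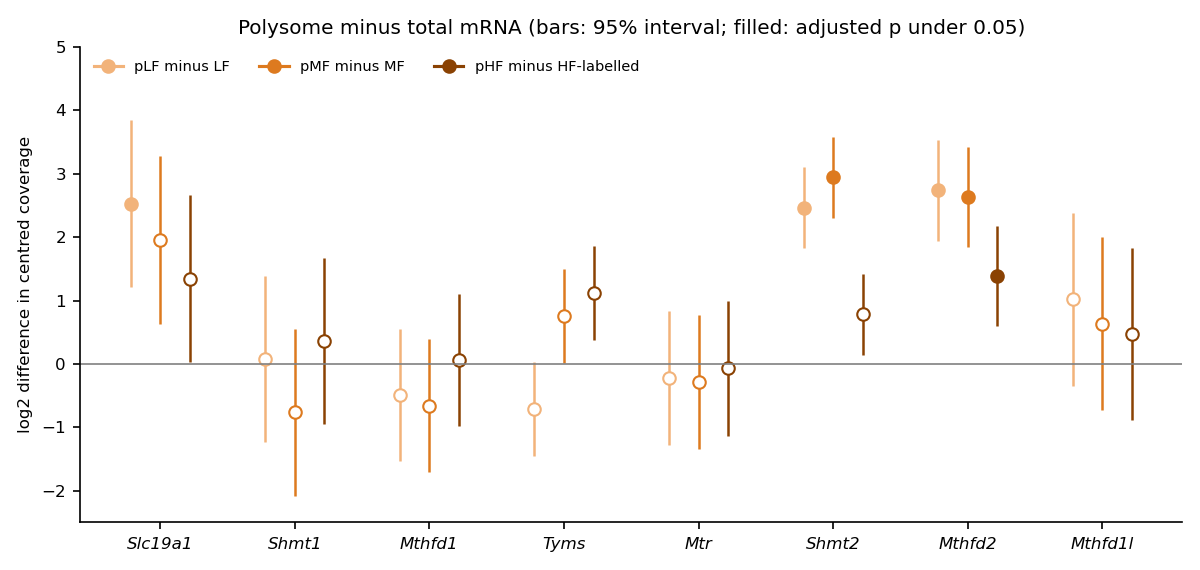
Difference in centred log2 coverage between polysome and total mRNA for each gene at low folate (light), medium folate (orange) and in the comparison of pHF with the HF-labelled libraries (brown). Points are limma estimates with 95% intervals, and filled points had an adjusted p under 0.05: Slc19a1, Shmt2 and Mthfd2 in pLF, Shmt2 and Mthfd2 in pMF, and Mthfd2 in pHF.

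In pHF against the HF-labelled libraries, 1 of the 8 genes passed, where 13.0% of all genes passed and 7.22% were higher. Mthfd2 was higher by 1.39 on the log2 scale (SE 0.35, limma adjusted p = 0.0320), while the difference was 0.79 for Shmt2 (SE 0.29, limma adjusted p = 0.0970) and 1.12 for Tyms (SE 0.33, limma adjusted p = 0.0537). Over the cytosines listed in all 12 libraries the Shmt2 difference turned to -0.22. By median coverage these 3 genes and Slc19a1 were higher in both pHF libraries, as were 30.0% of all genes. The Mthfd2 call was lost without any one of the 4 libraries. The step from total to polysome mRNA was smaller for Shmt2 here than in MF, by 2.16 on the log2 scale (SE 0.40, limma adjusted p = 0.0483), where 0.771% of all genes passed and 0.463% were lower. For Mthfd2 it was smaller by 1.25 (SE 0.50, limma adjusted p = 0.221). The Shmt2 call was lost with cytosines of any level, with only the groups compared and with the replicate number as a block. It was also lost without any single library of the groups compared. Both total libraries in this comparison are the HF-labelled ones, in which Shmt2 was already high, so a difference in the polysome step and a difference in the total libraries cannot be told apart.

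Coverage along the mRNA showed where in Shmt2 and Mthfd2 the polysome libraries were higher. The transcripts were cut into 200-base bins, and the coverage in each bin was divided by the library's median gene. In Shmt2 (2289 bases), both pMF libraries were above both MF libraries in 9 of the 9 bins listed in all 4 libraries, and in Mthfd2 (2085 bases) in 9 of 9. Both pLF libraries were above both LF libraries in 8 of 8 bins of each gene. In Mthfd1l both pMF libraries were above both MF libraries in 11 of 14 bins and below in 0, although its median coverage did not pass the test. In Mthfd1 they were below in 9 of 15 bins and above in 3. In Tyms they were above in 2 of 4 bins and below in 0. In Tyms, coverage was concentrated in the coding part: in MF, the cytosines of its coding sequence had a median of 1293 and 1590 reads, and the 12 and 11 listed in its 3′UTR a median of 55 and 48. Bins of 1 gene share their libraries and are not replicates. Bins were counted for the 8 genes only, so no share over the bins of all genes stands beside these counts. By median coverage, 35.9% of all genes were higher and 31.2% lower in both pMF libraries than in both MF libraries. In pLF against LF, 33.8% of all genes were higher.

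**Figure D3:**
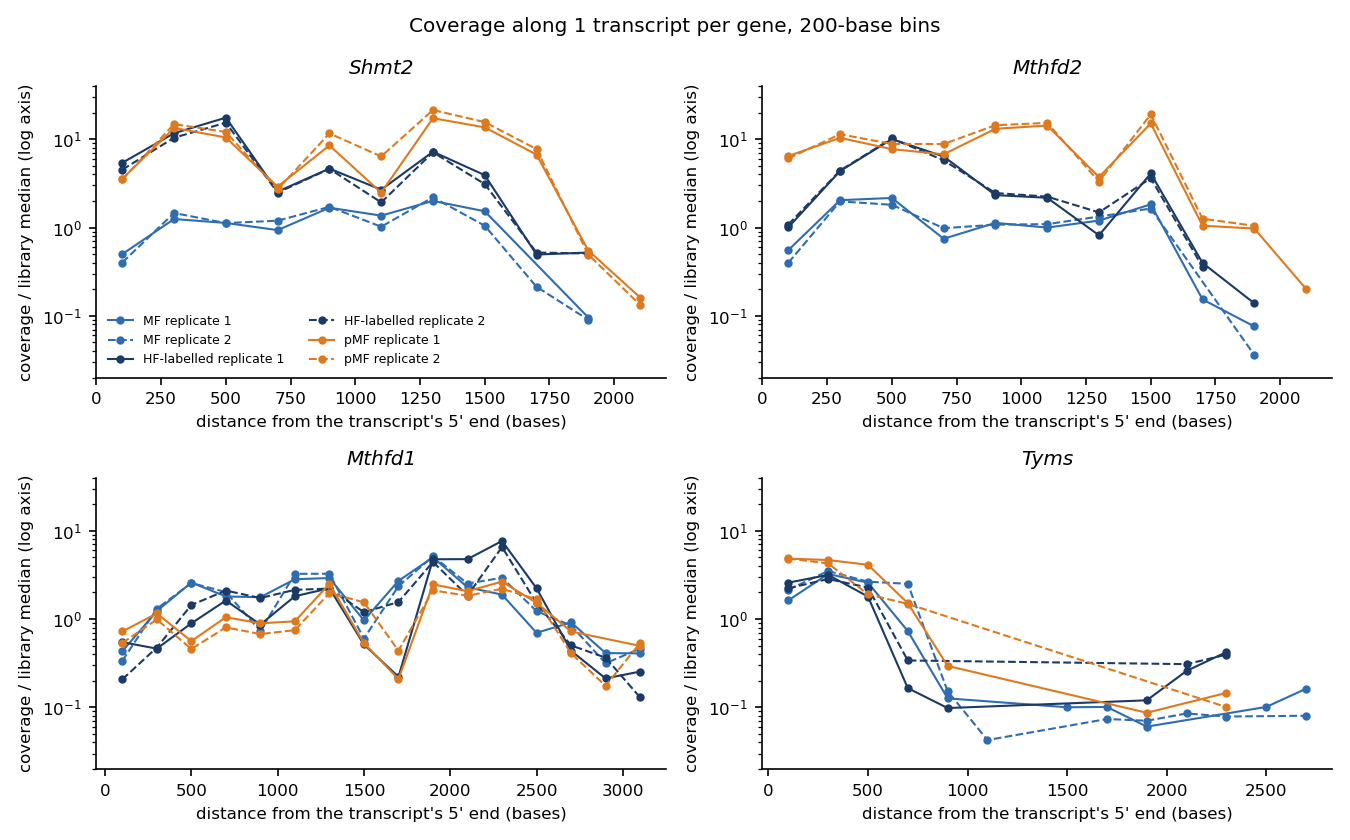
Coverage of cytosines with a level under 5% along 1 transcript of Shmt2, Mthfd2, Mthfd1 and Tyms, in 200-base bins from the 5′ end, divided by the median gene of the library (log axis), in MF (blue), HF-labelled (dark blue) and pMF (orange) libraries; solid and dashed lines are replicates 1 and 2. The orange lines lay above the blue ones in all shared bins of Shmt2 and Mthfd2. In Mthfd1 both orange lines lay below both blue ones in 9 of 15 shared bins and above in 3. In Tyms they lay above in 2 of 4 and below in 0.

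Of the cytosines with a level under 5%, which gave the coverage, at most 2.35% lay outside exons in any gene and library. Among cytosines of any level listed in any library, 652 of 732 in Shmt2 lay in exons, as did 342 of 351 in Tyms and 525 of 535 in Shmt1, and larger shares in the other genes. At 4906 of 4906 cytosines the deposited sequence context matched the mm10 genome. A cytosine was called methylated where 20 or more reads covered it, 6 or more of them methylated, at a level of 10% or higher. Of 4639 different cytosines of these genes with that coverage, 6 were called in any library and only 2 in both replicates of a group, the HF-labelled one. The 2 cytosines lay in the coding sequences of Mthfd1 (exon 24) and Shmt2 (exon 4), and another, in the 3′UTR of Mthfd2 (exon 8), was called in HF-labelled replicate 2 only. Their contexts are shown because all 3 carry a run of G directly before the called cytosine, which is in capitals. The called cytosines of Shmt1, Mthfd1l and Mtr carry no such run. That of Shmt1 was, like that of Mthfd2, called in HF-labelled replicate 2 only.
Mthfd1, chr12:76311852-76311872, plus strand: gaacacggggCttttgatgct
Shmt2, chr10:127519963-127519983, minus strand: ccgatgggggCcagtgagtat
Mthfd2, chr6:83306161-83306181, minus strand: gctggctgggCctagctgtcc
Of the 2860 cytosines assigned to 1 gene and called in both HF-labelled libraries, 59.8% followed 3 G bases, against 2.76% of all cytosines with a coverage of at least 20 in HF-labelled replicate 1. In the other groups this share was 2.86% to 5.38% of the called cytosines.

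At the Mthfd1 cytosine the level was 16.2% (26 of 160 reads, 95% Wilson interval 11.3% to 22.7%) and 11.0% (12 of 109 reads, 6.41% to 18.3%) in the HF-labelled libraries. It was 0.87% in MF replicate 2 (1 of 115 reads), 1.33% in pHF replicate 1 (1 of 75) and 0.395% in pHF replicate 2 (1 of 253). The remaining 7 libraries did not list it, although cytosines within 50 bases were listed there with a median coverage of 167 to 564 reads. That does not give the coverage at the cytosine itself, which in the HF-labelled libraries was 160 and 109 reads where the listed neighbours had a median of 804 and 433. At the Shmt2 cytosine the level was 18.7% (20 of 107 reads, 12.4% to 27.1%) and 11.4% (9 of 79 reads, 6.11% to 20.3%) in the HF-labelled libraries, and between 0.207% and 2.25% in the 8 other libraries that listed it. Its own coverage in the HF-labelled libraries, 107 and 79 reads, was far below the median of its listed neighbours, 2979.5 and 2467 reads. MF did not list it in either replicate. These intervals cover counting error only, as PCR reads without molecular identifiers are not independent molecules.

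**Figure D4:**
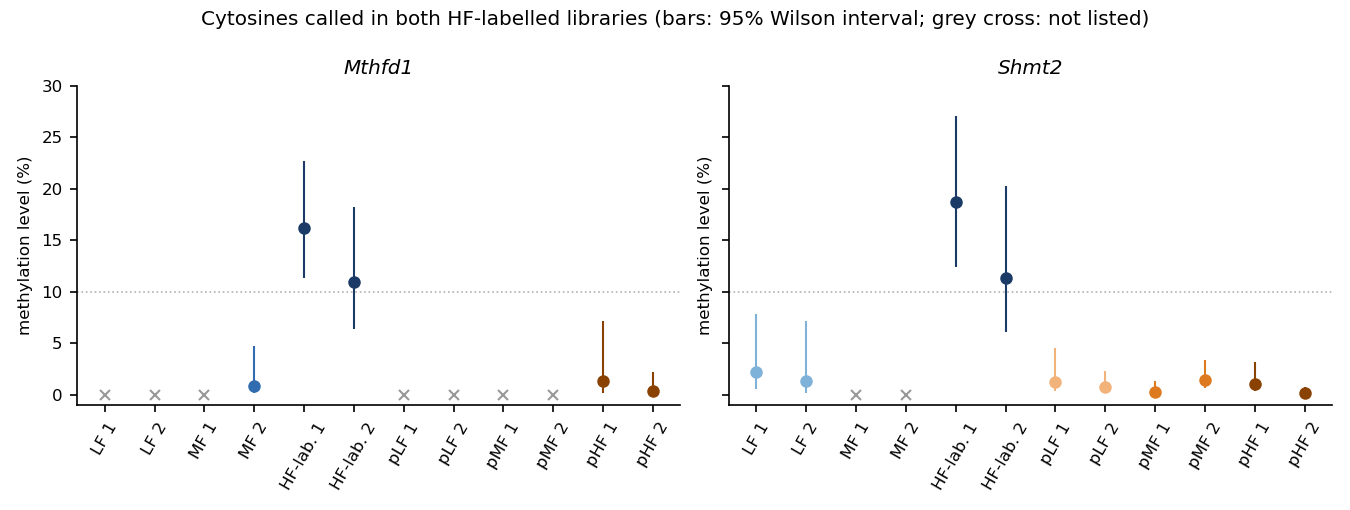
Methylation level in percent, with 95% Wilson intervals, of the cytosines in Mthfd1 and Shmt2 that were called in both HF-labelled libraries, in all 12 libraries; grey crosses mark libraries that did not list the cytosine, and the dotted line is the 10% limit. The 4 HF-labelled values lay between 11.0% and 18.7%, and the others were at most 2.25%.

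Genes with a cytosine called in both replicates made up 14.7% of all genes in the HF-labelled libraries, and 2 of the 8 genes were among them. In the other groups the share was 0.872% to 1.71% of genes, and 0 of the 8. With the reads of both replicates pooled, the level in pHF was 0.61% in Mthfd1 and 0.403% in Shmt2, against 14.1% and 15.6% in the HF-labelled libraries. Both cytosines entered this comparison because they were called in the HF-labelled libraries, so the selection set the direction, and the values are a description. Fisher's exact test on the pooled reads, which has no replicate term, passed at both, as it did at 65.3% of the 649 cytosines that entered, and nothing is read from it. No cytosine of the 8 genes could be tested in the other 6 comparisons, since none was called in both replicates of a group and listed in all 4 libraries. The other 3 called cytosines were each called in 1 library: Mthfd1l (11.5%, 6 of 52 reads) and Mtr (11.0%, 10 of 91 reads) in pMF replicate 1, and Shmt1 (10.2%, 12 of 119 reads) in HF-labelled replicate 2. Slc19a1 and Tyms held none. Over all 8 genes, the 1142 cytosines with a coverage of at least 20 in 6 or more libraries had a pooled level of at most 3.79%, so 0 reached 10% over the pooled libraries.

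The wider pathway was described by 36 further genes in 6 lists, of which 26 were tested and the rest were not listed or too thinly listed. In pLF against LF, 5 of the 26 passed, all higher, where 13.3% of all genes passed and 7.99% were higher. In pMF against MF 7 passed, all higher, where 12.4% of all genes passed and 7.36% were higher. In pHF against the HF-labelled libraries 6 were higher and 2 lower, where 13.0% of all genes passed. The median difference of the 26 was 0.36, 0.29 and -0.02 on the log2 scale, against 0.07, 0.03 and 0.04 over all genes. In HF-labelled against MF, 4 of the 26 were higher and 2 lower, where 6.36% of all genes passed, and their median difference was 0.28 against -0.03 over all genes. Between LF and MF, pLF and pMF, and pHF and pMF, 0 of the 26 passed.

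The serine synthesis genes, which make the serine that SHMT enzymes use, were higher in polysome mRNA, 2 of 3 in pLF, 3 of 3 in pMF and 3 of 3 in pHF against the HF-labelled libraries, where 7.99%, 7.36% and 7.22% of all genes were higher. Psph, the last enzyme of the pathway, had a median coverage of 1570 and 1795 reads in LF, 1562.5 and 1777.5 in MF, 4161.5 and 9947.5 in pLF, and 5883.5 and 4778 in pMF. It was higher by 2.53 and 2.55 on the log2 scale (SE 0.29, limma adjusted p = 0.00181 and 0.00149). Phgdh, the first enzyme, was higher by 2.16 and 1.91 (SE 0.19, limma adjusted p = 0.000687 and 0.000777), and Psat1 by 1.75 in pMF (SE 0.39, limma adjusted p = 0.0195) and by 0.58 in pLF, which did not pass. In the HF-labelled libraries Psph and Phgdh were also higher than in MF, by 1.27 and 0.90 (limma adjusted p = 0.0356 and 0.0266).

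Among the folate interconversion genes, Aldh1l2, the mitochondrial 10-formyltetrahydrofolate dehydrogenase, was higher in pLF by 1.55 and in pMF by 2.27 (SE 0.41, limma adjusted p = 0.0347 and 0.00898). In the HF-labelled libraries it was higher than in MF by 3.45 (limma adjusted p = 0.00467), with 536 and 478 reads against 61 and 71. Of 4 glycine cleavage genes, Gcsh was higher in pLF and pMF, by 1.57 and 1.14 (SE 0.23, limma adjusted p = 0.00437 and 0.0144), and differed by -1.46 in the HF-labelled libraries against MF (limma adjusted p = 0.0110), while the other 3 did not pass in these comparisons and the list's median was 0.08 and 0.05 in pLF and pMF. Of 6 purine synthesis genes, Adsl was higher in pLF and pMF, by 1.12 and 1.08 (SE 0.22, limma adjusted p = 0.0127 and 0.0154). The other 5 did not pass, and the median of the list was -0.29 in both comparisons, with -1.27 and -1.23 for Pfas, -0.59 and -1.64 for Paics and -1.44 and -0.51 for Ppat. Of 6 tested genes of thymidylate and deoxynucleotide supply, Dut, which hydrolyses dUTP to the dUMP that Tyms methylates, was higher in pMF by 0.91 (SE 0.25, limma adjusted p = 0.0406) while the 0.83 in pLF did not pass (limma adjusted p = 0.0538), and it differed by -1.28 in the HF-labelled libraries against MF (limma adjusted p = 0.0203). The other 5 did not pass, with a list median of 0.36 in pLF and -0.05 in pMF, and values of -1.43 and -1.48 for the ribonucleotide reductase subunit Rrm2. Of the folate transport and retention genes, Fpgs and Ggh were tested and 0 passed in any comparison.

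**Figure D5:**
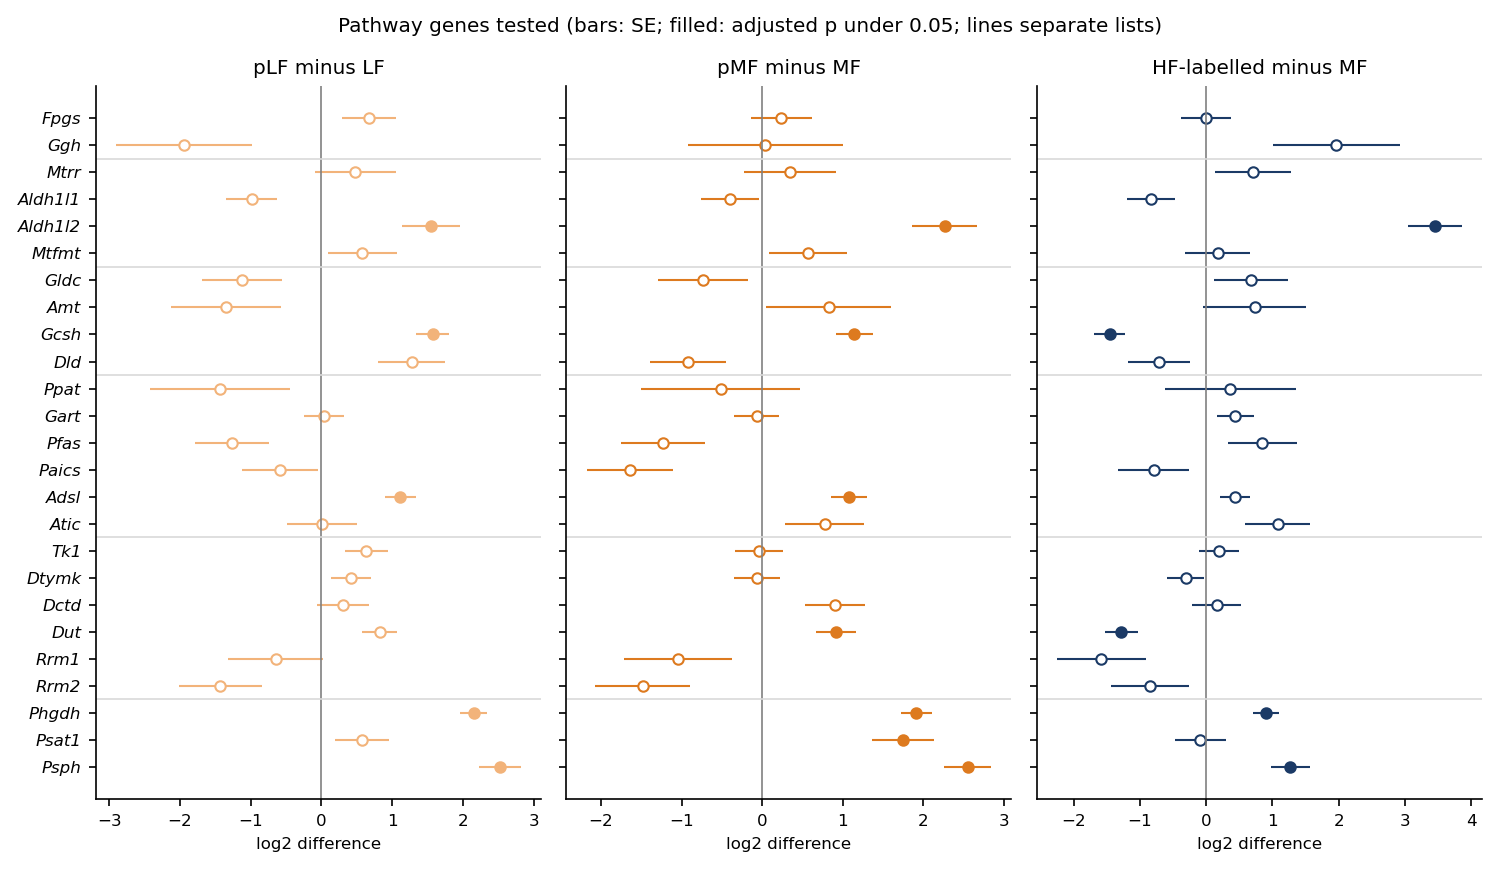
Difference in centred log2 coverage (limma estimate with its SE) of the further pathway genes tested and reported here, for pLF minus LF, pMF minus MF and HF-labelled minus MF; filled points had an adjusted p under 0.05 and grey lines separate the lists. Phgdh, Psph and Aldh1l2 lay above 0 in all 3 panels, and Gcsh and Dut changed side in the HF-labelled panel.

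The genes with a pattern most like the mean of the 8 across the 12 libraries were Slc3a2 (r = 0.978), Phgdh (0.974), Gadd45a (0.972), Lonp1 (0.971) and Adsl (0.969). For 7 of the 8 genes the closest were Nupr1 for Shmt2 (r = 0.986), Phgdh for Mthfd2 (0.985), Vegfa for Slc19a1 (0.974), Fam131a for Shmt1 (0.943), Rusc2 for Tyms (0.929), Cd151 for Mthfd1l (0.817) and Il6st for Mtr (0.794). These are Pearson correlations of centred log2 coverage, in which the libraries share depth and fraction. Within the 8, Shmt2 and Mthfd2 had r = 0.968, they had 0.871 and 0.913 with Slc19a1, and Mthfd1 had -0.642 with Shmt2 and -0.588 with Mthfd2. Tyms had 0.177 with Shmt2 and 0.222 with Mthfd2. With the rest of the 8, Shmt1 had -0.320 to -0.033 and Mtr -0.350 to 0.293. The 8 thus shared no single pattern, and likeness to their mean is not likeness to each gene.

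The promoters of the 8 genes in RefSeq (build GRCm38.p6, 250 bases before to 50 after each start, 9 in all) were searched on both strands for the core of the amino acid response element, TGATGNAA, and for the E2F site forms TTTCGCGC and TTTGGCGC. None of the 9 held any of them, in windows of which 3.97%, 0.323% and 0.514% of all 32851 held each.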

How the data were processed

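After fastp trimming, the authors used meRanTK for alignment to mm10 and for calling cytosines, and deposited 1 list per library, made before the study's later site filters; the submitters' processing notes also name R 4.1.1. The deposited counts of covering and methylated reads per cytosine carry no scaling between libraries. The level is a deposited fraction, methylated reads over covering reads without those of a variant base. Every listed cytosine had 10 or more reads and 1 or more methylated reads.

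Cytosines with the state M that were assigned to 1 gene were used. The log2 of a gene's median coverage over cytosines with a level under 0.05 was centred on the library's median gene. Genes with at least 10 such cytosines in each of 12 libraries (7135) were tested with limma 3.58.1 (lmFit and eBayes with trend, 6 groups, R 4.3.3), with Benjamini-Hochberg adjustment over all genes and a threshold of 0.05. Because only cytosines with a methylated read are listed, the median shifts with the positions listed. Pooled reads of each site entered Fisher's exact test (two-sided), which has no replicate term, over cytosines called in both replicates of either group and covered at least 20 times in 4 libraries; 1 read moves a level by 5 percentage points at that coverage. Python 3.11.15, pandas 2.3.3 and scipy 1.17.1 were used.

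The genes and lists were chosen with earlier results of these data known. All 8 genes were named, with the 3 genes of each pathway list that differed most between polysome and total mRNA and any that passed between folate concentrations, the cytosines called in both replicates, and the genes most alike in pattern; cytosines called in 1 library were added after their values were seen. In simulated data of pMF against MF with 7135 genes, 200 genes were changed and the rest left equal. The limma test recovered 0%, 0%, 56.5% and 93.5% of genes changed by 0.5, 1, 2 and 3 on the log2 scale. In the data themselves 888 genes passed, so the adjustment was less strict and these shares do not carry over. For a single value, an exact permutation test of 2 against 2 libraries cannot go below p = 0.333. Replicate numbers were not used to pair the samples, and the deviations of same-numbered libraries correlated at -0.04 to 0.04. These correlations cannot show whether same-numbered libraries shared a culture, since the listed positions differ between libraries. Tests were repeated with other summaries, filters, scalings and samples; the 75th percentile and matched cytosines were chosen after seeing the data. Some pathway and pattern results are not reported here.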

Additional observations from a re-analysis of the deposited data

Results flagged for a closer look

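The change of Shmt2 from total to polysome mRNA was compared between library groups by a test of the difference itself. The difference between pHF minus HF-labelled and pMF minus MF was -2.16 on the log2 scale (SE 0.40, limma adjusted p = 0.0483). Leaving out any one of the 8 libraries gave values of -2.38 to -1.94, with limma adjusted p from 0.0583 to 0.188, so the call was lost each time. The call rests on the total libraries labelled HF, which stood apart from the other total libraries. It is therefore not read as a difference between folate conditions. A difference in the polysome step and a difference in the total libraries cannot be told apart here.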

How the results depend on the processing

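The 9 differences that passed kept their direction in all 137 alternative values, of which 106 also passed and 31 did not. Of 191 values for the 13 named differences that did not pass, 25 passed and 5 turned: Mthfd1 in HF-labelled against MF (0.0174 without HF-labelled replicate 1 and -1.68 without replicate 2), Tyms in pLF against pMF (0.12 over matched cytosines), Tyms in pLF against LF (0.0512 with mean coverage, 0.39 with the 75th percentile) and Shmt2 in pHF against HF-labelled (-0.22 over cytosines listed in all 12 libraries). The cause was not tested. The other 50 differences changed sign in 105 of 728 values.

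Genes of the 8 that passed in HF-labelled against MF numbered 2, then 3 with mean coverage or the 75th percentile (Tyms lower), 1 over cytosines listed in all 12 libraries (1 gene tested), 4 over matched cytosines (4 tested; Tyms and Mthfd1 lower), and 0 to 2 leaving out 1 replicate. In pLF against LF the 3 became 1 over the cytosines of all 12 libraries (1 tested), 0 with only the groups compared and 4 with mean coverage (Mthfd1 lower), and over matched cytosines they were 3 of 3 tested (Tyms lower). In pMF against MF the 2 became 1 over the cytosines of all 12 libraries (1 tested) and 3 with mean coverage, at least 3 cytosines, quantile normalization, only the groups compared, without pHF replicate 2 and the HF-labelled libraries or without either pHF replicate (Slc19a1 higher) and over matched cytosines (Mthfd1 lower, 4 tested). In pHF against HF-labelled the 1 (Mthfd2) became 0 over the cytosines of all 12 libraries (1 tested, Shmt2, and not Mthfd2), with quantile normalization or with only the groups compared. It became 2 with exon cytosines, cytosines of any level or at least 3 cytosines, 3 with the 75th percentile or matched cytosines, and 4 with mean coverage. When 1 replicate of these groups was left out the number fell or stayed, and the Mthfd2 call was lost each time, so where it stayed another gene passed. The number fell without either MF replicate and rose without either pLF replicate. For the difference between the polysome steps of pHF and pMF the 1 became 0 with any level or only the groups compared, 2 with mean coverage, and 0 leaving out any replicate other than those of pLF, without either of which it stayed 1. With the replicate block, 1 gene passed in HF-labelled against MF (Mthfd2 was lost) and 0 in the difference of polysome steps, and no other call among the 8 changed. The 2 cytosines tested became 0 with a level of at least 0.2, and the 8 called measurements became 42 with at least 3 methylated reads, 22 of them in Shmt2 in pLF replicate 2.

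Counts over all genes moved more. With mean coverage, 1869, 2539, 2531 and 3174 genes passed in HF-labelled against MF, pLF against LF, pMF against MF and pHF against HF-labelled, in place of 454, 950, 888 and 928; over matched cytosines 2823 of 3437, 1613 of 2705, 1909 of 2580 and 1664 of 2364 tested genes passed. Leaving out 1 library of the groups compared lowered them to 16 to 161, 176 to 936, 127 to 377 and 385 to 617, and the 55 genes that passed for the difference between the polysome steps of pHF and pMF became 0 to 169. Lists without unmethylated cytosines and coverage near 20 limit what can be said of low levels, and 2 replicates limit the tests.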
